A study of Danio rerio with 6 samples.

Results

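The genes described here are those whose deposited expression values were alike in all 6 libraries of a zebrafish germline series. They were chosen by 2 limits on FPKM (fragments counted per kilobase of transcript, relative to all fragments of the library): a value of at least 20 FPKM in each of the 6 libraries, and a highest value at most 2 times the lowest. Rows above 10000 FPKM in any library and 6 rows named by ID beforehand, among them beta-actin and GAPDH rows, were left out, and 0 of those 6 would have met the limits. Of 32253 rows in the table, 40 met the rule, or 0.124% of all rows. Of the 671 rows that passed the limit on level, 5.96% met it.

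All 6 libraries came from adult wild-type zebrafish of the TLAB strain. Whole ovary dissected from females, mature oocytes obtained by squeezing females, and whole dissected testis gave 2 libraries each. No treatment or mutation was applied to any group. Separate animals are not stated in the labels for replicates of a tissue, so the spread between them may be technical.

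Genes with like levels in many tissues are often called housekeeping genes, because they serve functions that nearly all cells need, such as making proteins, splicing RNA, degrading proteins and respiring. Such genes are sought as reference genes, against which other transcripts are measured. In the germline the search is unusual: a mature oocyte transcribes little or nothing and carries RNA stored during its growth, a whole ovary holds oocytes at all stages with their somatic cells, and a testis holds mostly male germ cells at many stages with their own somatic cells. FPKM values are relative within a library, and any scaling between libraries is not given in the sources used here. A like FPKM value therefore means a like relative level on the deposited scale, not a like number of transcripts per cell. In such bulk samples fewer cells of a type and less RNA per cell cannot be told apart.

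The limits themselves used every value of the table, so the levels and ratios of the 40 genes below are given as a description, with no test. Read numbers per library were not used here, the depth is unknown, and no counting error can be given. Among the markers listed for each tissue, those of oocytes (gdf9, bmp15, zp3b, zar1 and buc) summed to 250.4 and 207 FPKM in oocyte, 3096 and 3867 in ovary and 11.4 and 11.1 in testis. The 4 matched markers of spermatogenic cells summed to 183 and 163 FPKM in testis and to at most 4.02 elsewhere, and all 5 markers of testis somatic cells reached 1 FPKM in both testis libraries. The oocyte sum in ovary came mostly from zp3b and zar1, and bmp15 went the other way, with 67.0 and 64.5 FPKM in oocyte and 57.4 and 52.7 in ovary. Of the ovary somatic markers, foxl2a and cyp19a1a could not be matched by symbol, and the other 3 (amh, fshr and gsdf), of which amh and gsdf are also testis somatic markers, summed to 1228 and 1355 FPKM in testis, 13.2 and 28.1 in ovary and 4.35 and 2.65 in oocyte, so the matched part of the list does not mark ovary here. The 4 germ line markers summed to 218 and 310 FPKM in oocyte, 129 and 107 in ovary and 214 and 230 in testis. Of these, ddx4 and piwil1 were highest in testis, dazl in oocyte and nanos3 in ovary. The 2 matched connective tissue markers summed to 17.3 FPKM in oocyte replicate 2 and 4.65 in oocyte replicate 1. Their sums were 2.79 and 5.59 in ovary and 21.1 and 22.9 in testis. Of the blood and vessel markers, the hemoglobin gene hbaa1 stood at 73.9 FPKM in testis replicate 2 and 16.4 in testis replicate 1. The other matched ones, kdrl, cdh5 and ptprc, went the other way between the testis replicates and stayed under 1 FPKM in all libraries. The part of these markers in the levels of the 40 genes was not tested.

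**Figure D1:**
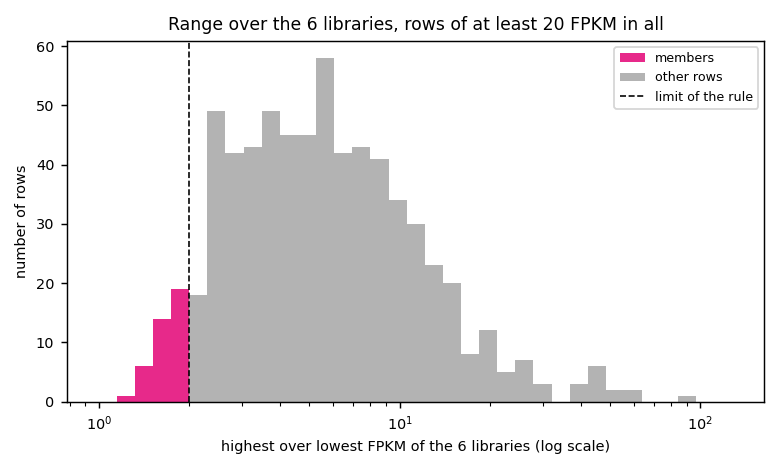
Number of rows (vertical axis) by the ratio of the highest to the lowest FPKM value of the 6 libraries (horizontal axis, log scale), for the 671 rows of at least 20 FPKM in all libraries. The 40 members lie left of the dashed line at a ratio of 2, and the median ratio of all rows shown was 5.34.

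Among the 40 genes the ratio of the highest to the lowest value ran from 1.27 to 1.998, with a median of 1.71, as the histogram of ranges shows. Over the 671 rows the median ratio was 5.34 and the highest 90.6. Of the 40 genes, 7 stayed within 1.5-fold and 21 within 1.75-fold. The level floor shaped the set as well. The 40 means over the 6 libraries ran from 25.7 to 1405 FPKM with a median of 42.4, against a median of 129.8 over the 671 rows. Of the 83 rows with a mean between 20 and 50 FPKM 25 were members, of the 182 rows between 50 and 100 FPKM 8 were, of the 285 rows between 100 and 500 FPKM 4 were, and of the 121 rows above that 3 were. A row with a mean just above the floor can span only a small range while all its values stay at 20 or more, so the larger share near the floor is partly set by the rule. The share of 5.96% of the 671 rows, set beside gene lists below, was not matched for level.

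**Figure D2:**
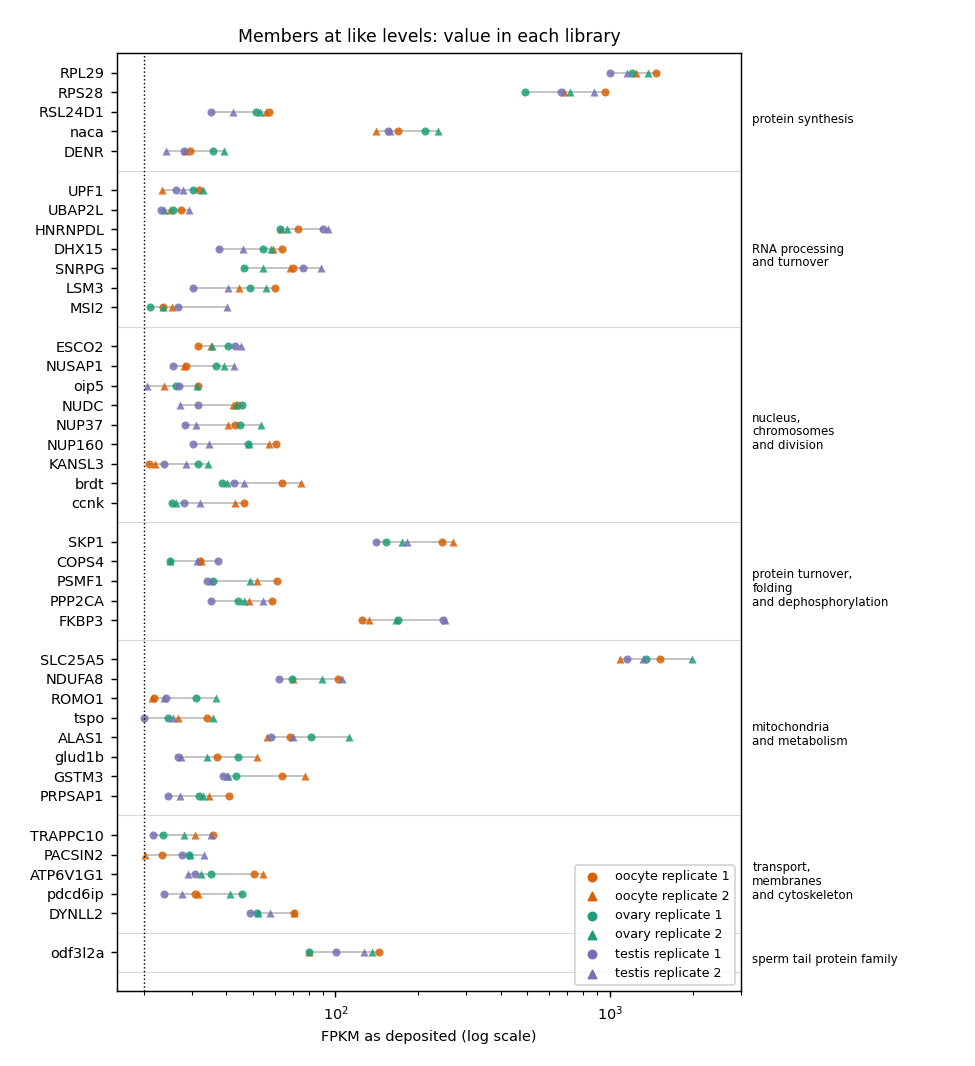
FPKM value of each of the 40 members in each of the 6 libraries (horizontal axis, log scale), with the genes on the vertical axis grouped by function, circles for replicate 1 and triangles for replicate 2 of oocyte, ovary and testis, and a dotted line at the floor of 20 FPKM. RPL29, RPS28 and SLC25A5 stand apart at 491 to 1994 FPKM, and no gene spans more than 2-fold.

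Protein synthesis gave 5 of the 40 genes, and the most abundant among them was RPL29, a protein of the large ribosomal subunit. Its values were 1474 and 1239.5 FPKM in oocyte, 1201 and 1376 in ovary and 997 and 1149 in testis. Both testis libraries lay below the other 4, and the oocyte and ovary ranges overlapped. RPS28, of the small subunit, had 955 and 680.0 FPKM in oocyte, 491 and 713 in ovary and 662 and 877 in testis. The replicates of each tissue were so far apart that no pair of tissues was separate. These gaps had the directions most of the 671 rows had, given below. These 2 genes were the ribosomal protein genes within the limits out of 75 at 20 FPKM or more in all libraries, or 2.67% of them, against 5.96% of all 671 rows. Most of the 75 had means above 100 FPKM. At such means members were few, with 4 of 285 rows up to 500 FPKM and 3 of 121 above that. The gap to 5.96% therefore does not set the list apart. The ribosomal protein genes as a list had a median ratio of highest to lowest of 6.04, and in 58 of the 75 both oocyte libraries lay below the other 4, a pattern found in 23.5% of the 671 rows. RPS18, a ribosomal protein gene often used as a qPCR reference, lay just outside the ratio limit at 2.07.

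The other 3 genes of protein synthesis act beside the ribosome. RSL24D1, which takes part in assembling the large subunit, had 57.3 and 55.9 FPKM in oocyte, 51.4 and 53.1 in ovary and 35.1 and 42.5 in testis. The gene naca, for a subunit of the complex that meets new protein chains as they leave the ribosome, had 169 and 141 FPKM in oocyte, 212 and 235 in ovary and 155 and 158 in testis. Ovary was the high tissue for naca, at 0.69-fold in oocyte relative to ovary and 0.70-fold in testis relative to ovary (ratios of geometric means), and no oocyte or testis library reached it. DENR, a factor that helps ribosomes start again after a short reading frame, likewise had its highest values in ovary, 35.9 and 39.3 FPKM, against 29.6 and 28.2 in oocyte and 28.0 and 24.2 in testis. None of the 19 translation factor genes (symbols starting with eif or eef) at 20 FPKM or more was within the limits, where 5.96% of the 671 rows were, and in 13 of them both testis libraries lay below the other 4, as in 44.7% of the 671 rows.

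RNA processing and turnover gave 7 genes, including the gene with the narrowest range of the whole set. UBAP2L, an RNA-binding protein of stress granules, had 27.3 and 25.1 FPKM in oocyte, 25.5 and 23.8 in ovary and 23.1 and 29.2 in testis, a ratio of 1.27. Its tissue means were 26.2 ± 1.61, 24.7 ± 1.20 and 26.1 ± 4.34 FPKM (SD, n = 2), and the ranges of all 3 tissues overlapped. Next came UPF1, the helicase at the centre of nonsense-mediated mRNA decay, with 31.9 and 23.3 FPKM in oocyte, 30.3 and 32.8 in ovary and 26.2 and 27.8 in testis. For UPF1 the oocyte replicates were further apart than those of the other tissues, and of the 3 pairs of tissues only ovary and testis were separate.

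Within the same group some genes were highest in testis. HNRNPDL, a heterogeneous nuclear ribonucleoprotein, had 90.0 and 93.6 FPKM in testis, against 73.2 and 63.6 in oocyte and 62.8 and 66.4 in ovary. SNRPG, a subunit of the Sm ring of spliceosomal particles, had 76.1 and 88.9 FPKM in testis, 69.9 and 68.3 in oocyte and 46.5 and 54.6 in ovary. For SNRPG each tissue was separate from the others, in the order testis, oocyte, ovary. MSI2, an RNA-binding protein of the Musashi family, had 26.6 and 40.2 FPKM in testis, 23.5 and 25.3 in oocyte and 21.1 and 23.6 in ovary, so that its testis replicates were further apart than the lower of them was from the oocyte values.

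The other pair in this group was lowest in testis on the deposited scale. DHX15, a helicase that takes spliceosomes apart, had 37.6 and 46.2 FPKM in testis, against 64.0 and 59.4 in oocyte and 54.4 and 58.3 in ovary. LSM3, a subunit of the ring that binds U6 RNA and of the ring that acts in mRNA decay, had 30.3 and 40.6 FPKM in testis, 60.0 and 44.3 in oocyte and 48.8 and 55.8 in ovary. Of 47 spliceosome and RNA-binding genes at 20 FPKM or more, 4 were members (DHX15, HNRNPDL, LSM3 and SNRPG), or 8.51%, against 5.96% of all 671 rows. In 38 of the 47 both oocyte libraries lay above the other 4, a pattern found in 42.8% of the 671 rows. Of the 4 members DHX15 alone showed it.

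The largest group, 9 genes, serves the nucleus, chromosomes and cell division. ESCO2, the acetyltransferase that fixes cohesin between sister chromatids, had 31.7 and 35.3 FPKM in oocyte, 40.6 and 35.5 in ovary and 43.2 and 45.3 in testis. Its ratio of 1.43 was the third lowest of the 40, yet its tissues were all separate, in the order testis, ovary, oocyte. Oocyte lay only just below ovary, with 35.3 against 35.5 FPKM in the closest libraries, less than the gap between replicates of either. NUSAP1, a protein that bundles microtubules of the spindle, had 28.6 and 28.1 FPKM in oocyte, 36.7 and 39.4 in ovary and 25.7 and 42.7 in testis, and the testis pair spanned the values of the other tissues. The gene oip5, whose product helps to load the centromere histone, had 31.7 and 23.8 FPKM in oocyte, 26.3 and 31.2 in ovary and 26.9 and 20.6 in testis, with no tissue separate. NUSAP1 and oip5 are also neighbours in the genome: of 36 members matched by symbol to 1 protein-coding gene of the RefSeq annotation (GRCz12tu assembly), they were the 1 pair with no other protein-coding gene between them. Such pairs were not counted among other rows, so this says nothing about the set.

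The nuclear pore and nuclear migration genes of the set had their lowest values in testis on the deposited scale. NUP160 and NUP37, subunits of the ring-forming pore subcomplex, had 30.3 and 34.6 FPKM and 28.2 and 31.2 FPKM in testis. In oocyte NUP160 had 60.5 and 57.3 FPKM and NUP37 43.2 and 40.7, and in ovary they had 48.1 and 48.6 and 45.0 and 53.6. On the deposited scale both pore genes thus had the same low tissue but a different high one, oocyte for NUP160 and ovary for NUP37. With libraries rescaled by factors from rows at 1 FPKM or more, given below, testis was above both other tissues in all 40 genes. They were 2 of 9 nuclear transport genes at 20 FPKM or more (5.96% of all 671 rows were members), and in 7 of the 9 both testis libraries lay below the other 4 (44.7% of the 671 rows). NUDC, a dynein-associated chaperone needed for nuclear movement, had 31.5 and 27.2 FPKM in testis, against 43.6 and 42.3 in oocyte and 45.7 and 43.6 in ovary.

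Among regulators of transcription and chromatin the oocyte stood apart. The gene brdt, for a bromodomain protein known for its role in mouse spermatogenesis, was not highest in testis on the deposited scale: it had 63.6 and 75.0 FPKM in oocyte, 38.7 and 40.2 in ovary and 42.5 and 46.6 in testis. Cyclin K (ccnk), the partner of the kinases that phosphorylate RNA polymerase II during elongation, showed the same order, with 46.3 and 43.2 FPKM in oocyte, 25.3 and 26.2 in ovary and 28.2 and 32.1 in testis. These were the largest ratios of oocyte to ovary in the set, 1.75 for brdt and 1.74 for ccnk. The place of testis in this order depended on the scale. With libraries rescaled by factors from rows at 1 FPKM or more, given below, testis was above both other tissues in all 40 genes. The log2 ratios were then at least 0.61 for testis to oocyte and 0.50 for testis to ovary. The gene of a cyclin K partner, cdk13, lay just outside the limit at a ratio of 2.11. KANSL3, a subunit of a histone acetyltransferase complex, went the other way, with 21.0 and 21.99 FPKM in oocyte, 31.7 and 34.5 in ovary and 23.8 and 28.5 in testis. The chromatin list, matched by symbol, holds neither brdt nor KANSL3. Of its 12 genes that reached 20 FPKM in all libraries, 0 were within the limits. Over the 671 rows the share was 5.96%, so 0 of 12 does not set the list apart.

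Protein turnover, folding and dephosphorylation gave 5 genes. SKP1, the adaptor of SCF ubiquitin ligases, had 244 and 268 FPKM in oocyte, 153 and 175 in ovary and 140.1 and 182 in testis. PSMF1, an inhibitor that binds the proteasome, had 61.3 and 52.0 FPKM in oocyte, 35.9 and 48.6 in ovary and 34.1 and 35.1 in testis. Both were separate and higher in oocyte than in either of the organs. COPS4, a subunit of the COP9 signalosome, which acts on cullin ligases, was lowest in ovary at 25.0 and 25.0 FPKM, against 32.1 and 32.4 in oocyte and 37.2 and 31.4 in testis. PSMF1 was the 1 member among 15 proteasome genes at 20 FPKM or more, or 6.67%, near the 5.96% of all 671 rows. In 8 of these 15 both testis libraries lay below the other 4, where 44.7% of the 671 rows did so, and in 7 both oocyte libraries did, where the share was 23.5%.

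FKBP3, a nuclear prolyl isomerase, had the widest range of the set, just inside the limit at 1.998. Its values were 125 and 132 FPKM in oocyte, 169 and 166 in ovary and 247 and 249.7 in testis. The replicates of FKBP3 were close while the tissues were separate, with a mean of 129 ± 5.14 FPKM in oocyte, 167 ± 1.79 in ovary and 248 ± 1.78 in testis (SD, n = 2). PPP2CA, the catalytic subunit of protein phosphatase 2A, had 58.8 and 48.5 FPKM in oocyte, 44.0 and 46.3 in ovary and 35.1 and 54.2 in testis. Its paralog ppp2cb, a nearly identical enzyme, was outside the limits at a ratio of 8.35, with 114 and 104 FPKM in oocyte and 17.0 and 13.6 in testis.

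Mitochondria and metabolism gave 8 genes, led by SLC25A5, the carrier that exchanges ADP and ATP across the inner membrane. With a mean of 1405 FPKM it was the most abundant of the 40. It had 1524 and 1087 FPKM in oocyte, 1350.0 and 1994 in ovary and 1153 and 1323 in testis, and the oocyte range overlapped both others. NDUFA8, a subunit of respiratory complex I, had 102 and 70.2 FPKM in oocyte, 69.5 and 89.2 in ovary and 62.5 and 106 in testis, with wide replicate gaps and no tissue separate. It was the 1 member among 51 nuclear genes of the respiratory chain at 20 FPKM or more, or 1.96%, against 5.96% of all 671 rows. Most of the 51 had means above 100 FPKM, where members were few, so this gap does not set the list apart. In 25 of those 51 both ovary libraries lay above the other 4, a pattern found in 23.4% of the 671 rows.

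ALAS1, which makes the first precursor of heme, and ROMO1, a small protein of the inner membrane, were highest in ovary. ALAS1 had 81.7 and 112 FPKM in ovary, 68.5 and 56.1 in oocyte and 58.3 and 69.9 in testis. ROMO1 had 31.1 and 36.9 FPKM in ovary, 21.8 and 21.5 in oocyte and 24.2 and 23.6 in testis. For both, no library of another tissue reached the ovary values. The gene tspo, for a protein of the outer membrane that binds cholesterol, had the value closest to the floor, 20.002 FPKM in testis replicate 1, beside 25.7 in replicate 2, 34.0 and 26.8 in oocyte and 24.6 and 35.8 in ovary.

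The other 3 metabolic genes were lowest in testis by their means on the deposited scale. GSTM3, a glutathione transferase, had 63.7 and 77.4 FPKM in oocyte, 43.5 and 40.7 in ovary and 39.1 and 40.1 in testis, and the oocyte stood apart. The gene glud1b, for a glutamate dehydrogenase, had 37.1 and 51.9 FPKM in oocyte, 44.0 and 34.1 in ovary and 26.6 and 27.5 in testis. PRPSAP1, a protein bound to the enzyme that makes the sugar phosphate of nucleotides, had 41.0 and 34.7 FPKM in oocyte, 31.8 and 32.9 in ovary and 24.5 and 27.1 in testis. For all 3 genes the testis libraries lay below all others, for GSTM3 only just below ovary.

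Transport, membranes and cytoskeleton gave 5 genes with small means, from 27.2 to 58.6 FPKM. DYNLL2, a light chain of the dynein motor, had 70.6 and 70.5 FPKM in oocyte, 51.7 and 52.1 in ovary and 48.8 and 57.9 in testis. The row with the same symbol but another ID spanned 6.44-fold, with 45.6 and 42.1 FPKM in ovary and 8.34 and 7.08 in testis. How reads shared between such copies were assigned is not given in the sources used here, so the split between them is uncertain. Other rows with the symbols PPP2CA, MSI2 and GSTM3 stood at no more than 1.17, 10.7 and 5.18 FPKM, and the paralog of glud1b, glud1a, at 5.52 to 20.2 FPKM. ATP6V1G1, a subunit of the proton pump of lysosomes and other acidic compartments, had 50.7 and 54.3 FPKM in oocyte, 35.2 and 32.4 in ovary and 30.8 and 29.0 in testis.

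The remaining genes of membrane traffic differed in which tissue was high. The gene pdcd6ip, for the adaptor Alix of the membrane-cutting ESCRT machinery, had 45.6 and 41.2 FPKM in ovary, 30.7 and 31.5 in oocyte and 23.7 and 27.7 in testis. PACSIN2, which bends membranes in endocytosis, had 29.2 and 29.6 FPKM in ovary, 27.7 and 33.3 in testis and 23.4 and 20.2 in oocyte, so that both organs lay above the oocyte. TRAPPC10, of a complex that tethers vesicles, had 35.9 and 30.7 FPKM in oocyte, 23.5 and 28.2 in ovary and 21.6 and 35.3 in testis, with the testis pair spanning nearly the whole range.

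The last gene, odf3l2a, belongs to a family named for a protein of the sperm tail, and its testis values overlapped those of both other tissues. It had 144 and 80.1 FPKM in oocyte, 80.4 and 135 in ovary and 101 and 127 in testis. Its tissue means of 112 ± 44.9, 108 ± 39.0 and 114 ± 18.4 FPKM (SD, n = 2) were closer together than the replicates of any tissue. The spermatogenic marker tekt1, a tubule protein of sperm tails, stood at 63.3 and 54.3 FPKM in testis and at 0.14 to 0.25 FPKM in the other libraries.

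Falling within 2-fold did not mean that the values of the tissues overlapped. With 2 libraries per tissue, values can fall apart in this way without a difference between tissues. The count also takes in gaps as small as that of ESCO2, 35.3 FPKM in oocyte against 35.5 in ovary. In 35 of the 40 genes at least 1 pair of tissues had values that did not overlap, against 96.9% of the 671 rows. The 5 genes with overlap in all pairs were UBAP2L, oip5, NDUFA8, odf3l2a and RPS28, whose ratios ran from 1.27 to 1.95. In 28 of the 40 genes the tissue means (on the log2 scale) were further apart than the replicates of any tissue, which held for 92.8% of the 671 rows. Because the rule limits the range over the same values, these shares say nothing further about the genes.

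The order of the tissues was not the same from gene to gene. Oocyte lay above ovary without overlap in 15 of the 40 genes and below it in 11, where the shares over the 671 rows were 46.5% and 37.7%. Testis lay above ovary in 8 and below it in 20, where the shares were 15.4% and 61%. Against oocyte, testis was above in 8 and below in 19, where the shares were 27% and 59.8%. Over the 13717 rows of at least 1 FPKM in 2 or more libraries, the shares were 42.8% and 38.9% for oocyte above and below ovary, 25.2% and 64.1% for testis above and below ovary, and 31.6% and 58.7% for testis above and below oocyte. These comparisons share libraries and are not independent of each other. Both testis libraries lay below the other 4 in 14 genes (44.7% of the 671 rows did so) and above them in 5 (6.56%). Both oocyte libraries lay above the other 4 in 11 genes (42.8% of the 671 rows) and below them in 5 (23.5%), and both ovary libraries lay above in 7 (23.4%) and below in 4 (9.39%). The highest tissue mean was that of oocyte in 19 genes, of ovary in 13 and of testis in 8, and the lowest was that of testis in 20. Over the 671 rows the shares were 49.8%, 35.5% and 14.8% for the highest mean and 55.1% for testis as the lowest.

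**Figure D3:**
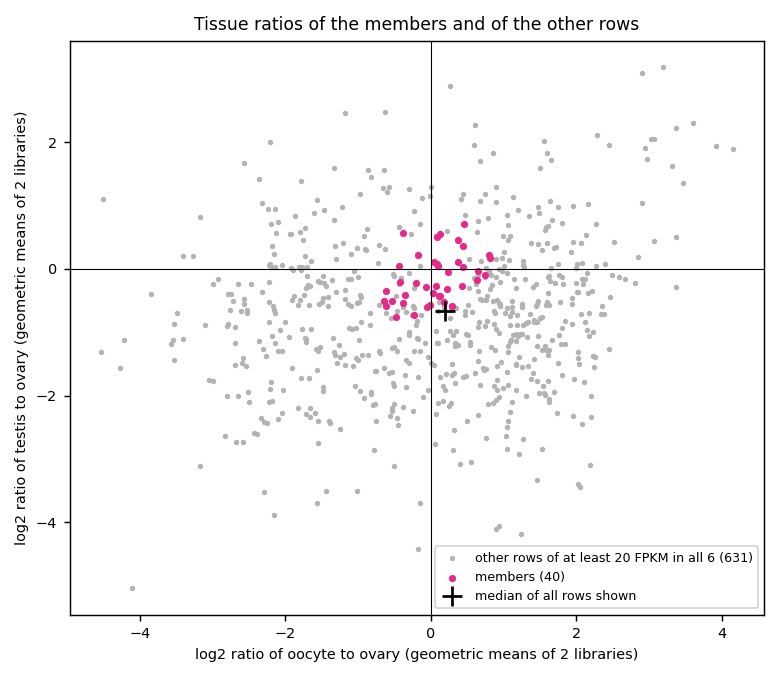
Log2 ratio of oocyte to ovary (horizontal axis) against log2 ratio of testis to ovary (vertical axis), from geometric means of 2 libraries, for the 40 members and the 631 other rows of at least 20 FPKM in all libraries. The cross marks the median of all rows, at 0.19 and -0.66, and the members lie around 0 on both axes, as the rule requires.

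On the log2 scale the ratio of oocyte to ovary had a median of 0.08 over the 40 genes, with values from -0.65 (ROMO1) to 0.81 (brdt). The ratio of testis to ovary had a median of -0.21, from -0.76 (pdcd6ip) to 0.71 (SNRPG), and that of testis to oocyte had a median of -0.24, from -0.86 (NUP160) to 0.95 (FKBP3). Over the 671 rows the medians were 0.19, -0.66 and -0.85 in the same order, as the plot of tissue ratios shows. The rule holds the ratios of the 40 genes near 0, so this gap to the medians of all rows follows from it. Under the 5 other scalings of the libraries the medians of the same 40 genes were 0.26 to 1.05 for testis to ovary and 0.19 to 1.24 for testis to oocyte, with the sign changed in 15 to 25 and in 13 to 27 of the genes, so the lower testis medians hold on the deposited scale only. The medians for oocyte to ovary were -0.30 to 0.19, with the sign changed in 1 to 14 genes, so their sign depended on the scaling as well.

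The set also depended on single libraries, as a limit on the highest and lowest of 6 values must. The lowest of the 6 values was that of testis replicate 1 in 19 of the 40 genes, and the highest was that of oocyte replicate 1 in 14. Over the 671 rows these counts by library were not made, but testis had the lowest mean in 55.1% and oocyte the highest in 49.8%. Replicate 2 was above replicate 1 in 34 genes in testis, 32 in ovary and 11 in oocyte, and over the 671 rows the shares were 80.3%, 76.9% and 28.5%. The median log2 ratio of replicate 2 to replicate 1 over the 671 rows was 0.30 in testis, 0.30 in ovary and -0.24 in oocyte. RPS28, NDUFA8 and odf3l2a had their replicate gaps in these directions in all tissues, UBAP2L and oip5 did not. The median fold between replicates of the 40 genes was 1.17 in testis, 1.13 in oocyte and 1.10 in ovary. Over the 671 rows it was 1.27 in each tissue, and the rule itself limits this fold in the 40 genes. Without testis replicate 1, 72 rows met the rule over the 5 remaining libraries. Leaving out a library can only add rows, and a row that joins must have had its highest or lowest value there. All 32 rows that joined had their lowest value in that library, and in 8 of them it was under 20 FPKM.

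The limits fell within a continuous spread. The 5 members closest to the ratio limit had ratios of 1.98 to 1.998, and the 5 nearest rows beyond it (RPS18, SEPTIN8, dlgap5, ORC4 and cdk13) had 2.07 to 2.11. At the floor, the 5 members with the smallest lowest value (tspo, PACSIN2, oip5, KANSL3 and MSI2) had 20.002 to 21.1 FPKM there, and the 5 nearest rows under it that kept within 2-fold had 18.3 to 19.9 FPKM. These were CNOT2, ELOB, UBR2, LSM1 and ENSDARG00000101369.

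**Figure D4:**
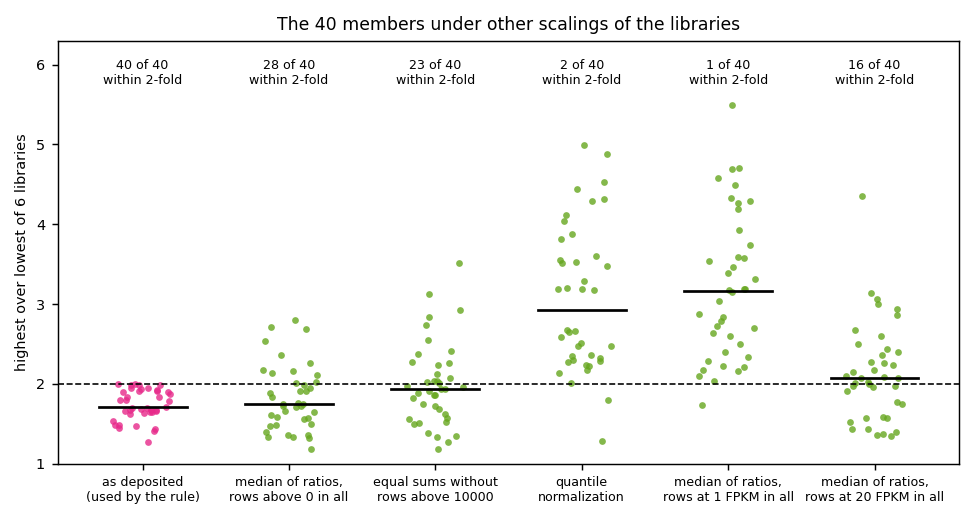
Ratio of the highest to the lowest value of the 6 libraries for each of the 40 members (points), as deposited and after 5 rescalings of the libraries, with a bar at the median and a dashed line at a ratio of 2. The number within 2-fold went from 40 on the deposited scale, which the rule used, to between 1 and 28 under the others. Under those other scalings 6.71% to 10.7% of the 671 rows were within 2-fold.

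Whether these genes were at like levels depended on how the libraries were scaled against each other. Median-of-ratios scaling, which gives each library a factor so that the typical row has equal values, was computed from 3 sets of rows. With factors from the 19750 rows above 0 in all libraries, 28 of the 40 genes stayed within 2-fold, against 7.30% of the 671 rows. With factors from the 671 rows at 20 FPKM or more it was 16, against 10.7% of the 671 rows. With factors from the 6942 rows at 1 FPKM or more it was 1, NUP160, against 6.71%. The last set divided the oocyte libraries by 1.46 and 1.51, the ovary libraries by 1.27 and 1.29 and the testis libraries by 0.538 and 0.531, and on that scale the 40 genes had a median log2 ratio of 1.05 for testis to ovary and 1.23 for testis to oocyte. Rescaling to equal sums without rows above 10000 FPKM left 23 genes within 2-fold, against 10.4% of the 671 rows. Quantile normalization left 2, NUP160 and SLC25A5, against 10.1%. Which scaling is closest to amounts of RNA per cell was not tested.

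How the members took the change of scale was partly set by their testis values on the deposited scale. Apart from quantile normalization, each other scaling divided both testis libraries by smaller factors than any oocyte or ovary library. Quantile normalization also raised the median testis ratios of the 40 genes. Genes high in testis as deposited therefore spread further, while genes low in testis could draw closer. The median-of-ratios scalings share 1 method, so the scalings met are not independent of each other. NUP160, which is lower in testis on the deposited scale, met the whole rule under all 5 other scalings, with ratios from 1.35 to 1.79, and SLC25A5 met it under 4. At the other end, 12 genes met it under none, among them all 5 whose testis libraries both lay above the other 4 (FKBP3, HNRNPDL, SNRPG, MSI2 and ESCO2). FKBP3, at 1.998 as deposited, reached ratios of 2.80 to 5.49. UBAP2L, the narrowest gene as deposited, had ratios of 1.83 to 3.32. RPL29 met the rule under 3 of the 5, with ratios from 1.36 to 2.64.

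Of the 18 common qPCR reference genes of zebrafish that could be matched by symbol, 8 reached 20 FPKM in all libraries and 0 were within the ratio limit. Over all 671 rows at that level the share was 5.96%, so 0 of 8 does not set these genes apart. Their ratios ranged from 2.07 for RPS18 to 44.9 for ppiab among those 8.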

How the data were processed

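RNA was sequenced from 6 libraries, 2 each of whole ovary, mature oocytes and whole testis, as strand-specific paired reads of 76 bases, per the labels' protocols. The authors deposited FPKM values, 1 column for each library, under the heading tracking_id for the IDs, per the file headers. TopHat, Bowtie2 and Cuffnorm and the GRCz10 build are named, without versions, in the submitters' processing notes. The annotation, the handling of shared reads and any scaling between libraries are not given in the sources used here, so the depth per library is unknown. Both the unknown depth and the number of libraries limit precision. Symbols came from a table of Ensembl gene IDs that matched 26411 of 32253 rows and all 40 members, and are spelled as there, some in capitals. No sequences were used here. Short genes and copies of a gene are the least certain, since reads shared between copies may be split.

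Members were selected on the deposited FPKM values with pandas 2.3.3 in Python 3.11.15 by the 2 limits given above. The members, the gene lists and the grouping by function were chosen with earlier results of these data known. Lists were matched by the first letters of the symbol, so COPS4 fell into the list of small GTPases and coats (1 member of 10 at 20 FPKM or more) and UBAP2L with SKP1 into that of ubiquitin enzymes (2 of 8). The vacuolar ATPase list had 1 of 2 (ATP6V1G1), cytoskeleton 1 of 12 (DYNLL2), and 14-3-3 proteins and phosphatases 1 of 8 (PPP2CA). RNA polymerase and general transcription had 0 of 8, chaperones 0 of 9, and mitochondrial ribosome and import 0 of 2. Over all 671 rows at 20 FPKM or more the share of members was 5.96%. All members are named. Tissue ratios are ratios of geometric means of 2 libraries, without a pseudocount. A pair of tissues was called separate when both libraries of one lay above both of the other. No test was run, because the rule used all values. The selection and the scaling factors were run on simulated data as a check of the code only. The simulated rows either clearly met or clearly failed the rule, or differed only by the factors and small noise. That check therefore says nothing about which scaling suits these data. Alternatives were 3 scalings, other limits on level and ratio, a ratio of tissue means, pseudocounts of 1 and 0.1, and each library left out. 2 further sets of rows for median-of-ratios factors, at 1 and at 20 FPKM, were added after the data were seen.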

Additional observations from a re-analysis of the deposited data

How the results depend on the processing

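No paired analysis was possible because the results come from no test. The number of rows that met the rule was 40 as reported. It was 148 after rescaling to equal sums without rows above 10000 FPKM (a scale on which all values are larger, so more rows pass the floor), 117 under quantile normalization, 85 and 10 with a floor of 10 and 50 FPKM, 7 and 147 with a ratio limit of 1.5 and 3, 102 with the ratio of tissue means, and 85 and 90 with factors from rows at 1 and 20 FPKM. Of these rows 23, 2, 40, 10, 7, 40, 40, 1 and 16 were among the 40. Median-of-ratios scaling from rows above 0 gave 53, of which 26 were among the 40.

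The highest tissue mean was that of oocyte, ovary and testis in 49, 59 and 40 rows with equal sums, 33, 49 and 35 under quantile normalization, 34, 37 and 14 at 10 FPKM, 4, 3 and 3 at 50 FPKM, 3, 1 and 3 at a ratio of 1.5, 65, 58 and 24 at a ratio of 3, 44, 40 and 18 with tissue means, 37, 25 and 23 with factors at 1 FPKM, and 32, 30 and 28 with factors at 20 FPKM. The median ratio of highest to lowest was 1.45 at a limit of 1.5 and 2.43 at a limit of 3. With equal sums the median log2 ratios of the rows then selected were -0.0640 for oocyte to ovary, -0.0259 for testis to ovary and -0.0689 for testis to oocyte, and under quantile normalization -0.0749, -0.0175 and 0.0311. For testis to ovary and testis to oocyte they were 0.00417 and -0.0167 at 50 FPKM, 0.0738 and -0.0115 at a ratio of 1.5, 0.00800 and -0.0388 with factors at 1 FPKM, and 0.0191 and -0.0307 with factors at 20 FPKM. Median-of-ratios scaling from rows above 0 gave -0.0399 for testis to ovary.

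With each library left out in turn, 47 to 72 rows met the rule (72 without testis replicate 1), with the highest mean in oocyte in 18 to 31 (31 without oocyte replicate 2), in ovary in 16 to 27 and in testis in 10 to 15. For the 40 genes themselves the sign of the testis to ovary ratio differed from the deposited scale in 15 to 25 under the scalings. That of the testis to oocyte ratio differed in 13 to 27, and that of the oocyte to ovary ratio in 1 to 14. Under either pseudocount the sign of each of these ratios differed in 0 genes. Apart from quantile normalization, each scaling divides a library by a single factor, so a given log2 tissue ratio moves by the same amount in all genes. The sign changes under those scalings follow from the factors. Why the factors differ between tissues was not tested. The unknown depth limits what can be said of single values near 20 FPKM.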

Other observations

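A row within 2-fold over all 6 libraries is also within 2-fold over any 4 of them, so pairs of tissues must hold at least as many such rows. Over the 4 libraries of oocyte and ovary, 496 of 1758 rows at 20 FPKM or more (28.2%) stayed within 2-fold. For ovary and testis it was 301 of 889 (33.9%), and for oocyte and testis 146 of 736 (19.8%). Under the floor the share within 2-fold over all 6 libraries was 6.80% of the 662 rows whose lowest value lay between 10 and 20 FPKM, 4.10% of the 1195 rows between 5 and 10 FPKM, and 2.88% of the 4414 rows between 1 and 5 FPKM.

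Of the rows that met the rule on any of 6 scales (the deposited one and 5 others), 1 met it on all 6, NUP160, and 8 on 5. Those 8, chosen after their values were seen, were SLC25A5 and, outside the 40 genes, RPL11, RPL5, SEC24B, VDAC3, cdk13, eloa and ENSDARG00000045940. The 7 outside the 40 had ratios of 2.11 to 2.66 on the deposited scale. Because the 5 other scalings raised testis in the 40 genes, this count favours rows that are low in testis as deposited. RPL5 (ENSDARG00000015862) and RPL11 (ENSDARG00000043509), which form a particle with 5S RNA before joining the ribosome, had 473 and 488 FPKM and 729 and 1040.3 FPKM in ovary, 324 and 339 and 940 and 615 in oocyte, and 201 and 204 and 430.0 and 391 in testis. In these 2 rows the testis libraries were the lowest. A second row with the symbol RPL5, ENSDARG00000020197, had 161 and 155 FPKM in testis, 75.3 and 65.8 in oocyte and 80.0 and 63.1 in ovary, so testis was the highest there.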
